A study of Mus musculus with 2 samples.

Results

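The actin junctional complex of the red cell was followed through 10 genes, listed by name: the adducins Add1, Add2 and Add3, dematin (Dmtn), the tropomodulins Tmod1 and Tmod3, the tropomyosins Tpm1 and Tpm3, the membrane scaffold Mpp1 (p55) and beta-actin (Actb). All 10 were found by Ensembl identifier, among 43346 Ensembl genes in each gene table, and together they have 82 quantified transcripts. In mature red cells the spectrin network is tied together at short actin filaments of even length. Tropomodulin caps the slow-growing end of each filament, adducin caps the fast-growing end and recruits spectrin, and tropomyosin runs along the side. Dematin bundles actin and, with adducin, links the filament to the membrane, where p55 joins the protein encoded by Epb41 to glycophorin C.

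The samples were 1 group of 2 total RNA libraries, each from 1 ng of RNA of primary erythroid progenitor cells (CFU-Ery, the colony-forming stage that precedes erythroblasts). The cells came from bone marrow of adult male C57BL/6J mice aged 5 to 6 weeks, of unknown health state, with no treatment or altered allele named. RNA fragments of 150 to 400 nt were selected and spike-in RNAs were used. The labels number the libraries as biological replicates from separate cell samples but give both the same donor record, so the spread between them may be technical in part. With 1 group there is no contrast to test, so levels are given per library, as mean ± SD (n = 2), with no p-value.

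Replicate 1 held 143491647 expected counts and replicate 2 held 110634458, of which 3.29% and 3.70% fell on nuclear protein-coding genes. TPM, a length-scaled unit with a fixed total over every row of a table, is therefore small for such genes. On a rescaled TPM, which gives that whole total to the 21461 nuclear protein-coding genes, 1 TPM becomes 43.1 in replicate 1 and 37.0 in replicate 2. All 10 erythroid markers were at 1 TPM or more in both libraries, with Epor at 5.58 and 6.65 TPM and Slc4a1 at 124 and 149 TPM. Granulocyte and monocyte markers were present too: 12 of 14 reached 1 TPM in both libraries, none was at 0, and they summed to 586 and 792 TPM, against 3762 and 4391 TPM for the erythroid markers. Macrophage markers summed to 13.2 and 16.7 TPM (6 of 10 at 1 TPM in both, Marco at 0 in replicate 1), B lymphoid markers to 17.2 and 19.0 TPM (3 of 8, none at 0). Megakaryocyte and platelet markers summed to 2.62 and 3.64 TPM (0 of 11, Gp6 and Treml1 at 0 in both and Gp1bb at 0 in replicate 2), and stromal and endothelial markers to 1.82 and 1.74 TPM (0 of 9, Col3a1 and Cdh5 at 0 TPM in both and Acta2 at 0 in replicate 1). The part of such cells in the levels below was not tested. In bulk RNA, fewer cells of a type and less RNA per cell cannot be told apart.

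The junctional complex genes spanned a wide range of levels, with beta-actin at the top and Tmod3 at the bottom. Of the 10 genes, 8 were at 1 TPM or more in both libraries, against 12.6% of nuclear protein-coding genes. On the rescaled TPM all 10 were at 1 or more, against 44.6% of those genes. Their median was 4.34 TPM, beside 2.56 TPM for all coding genes that reached 1 TPM in both libraries. Summed, they made up 0.436% of the TPM of nuclear coding genes in replicate 1 and 0.407% in replicate 2.

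By mean TPM the order was Actb (61.2 ± 3.87), Add1 (14.1 ± 1.85), Dmtn (10.0 ± 0.587), Tmod1 (6.26 ± 0.580), Mpp1 (5.00 ± 0.785), Tpm3 (3.68 ± 0.0495), Add2 (2.92 ± 0.255), Tpm1 (1.48 ± 0.276), Add3 (0.620 ± 0.0141) and Tmod3 (0.320 ± 0.113). No neighbours in this order had overlapping ranges over the 2 libraries. The closest pair, relative to its spread, was Tmod1 and Mpp1. The gap between their ranges was 0.30 TPM, less than the SD of either gene.

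**Figure D1:**
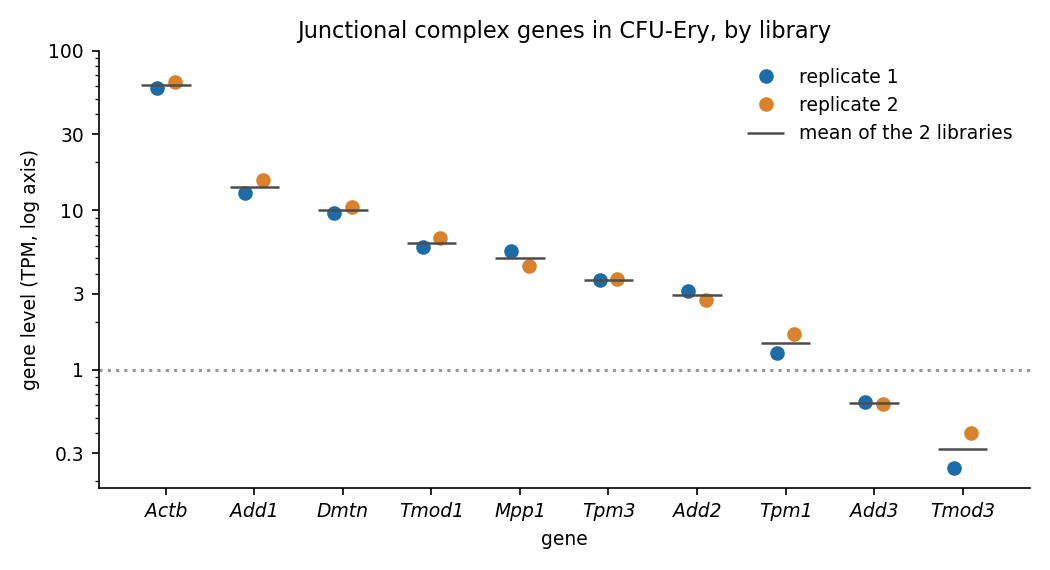
Gene level in TPM on a log axis for each junctional complex gene, with 1 point per library, a bar at the mean of the 2 libraries and a dotted line at 1 TPM. Actb sits at 58.4 and 63.9 TPM, while Add3 and Tmod3 lie below the line in both libraries.

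Actb, which encodes the actin of the junctional filaments, had 58.4 TPM in replicate 1 and 63.9 TPM in replicate 2, above 99.9% of nuclear protein-coding genes in each. It held 58.0% ± 0.228 of the TPM of the 10 genes. Its transcript Actb-201 (375 residues) carried 97.8% and 97.9% of its TPM. Actg1, the gamma-actin of non-muscle cells, had 14.2 and 14.7 TPM, and the muscle actins Acta1, Actc1 and Actg2 were listed at 0 in both libraries. Of the 25-base words in Actb transcripts, 30.8% also occur in transcripts of other genes, none of which held 20% of them. Lrrc58 came closest with 19.9%, at 0.21 and 0.27 TPM from 229.97 and 234.6 counts, and the pseudogene Gm15725 held 12.7%. Part of the Actb reads could therefore have been assigned among several genes.

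The tropomodulins, which cap the slow-growing filament end, were carried almost wholly by Tmod1, the form of mature red cells. Tmod1 (chr4:46038935-46116032, plus strand, mm10) had 5.85 TPM in replicate 1 and 6.67 TPM in replicate 2. Tmod3 (chr9:75497707-75559657, minus strand), the widely expressed form, had 0.24 and 0.40 TPM from 109 and 143 counts. Both libraries had Tmod1 far above Tmod3, by 24.4-fold in replicate 1 and 16.7-fold in replicate 2. The log2 ratio was 4.61 with a 95% counting interval of 4.33 to 4.88 in replicate 1, and 4.06 with an interval of 3.81 to 4.30 in replicate 2. These intervals cover counting error only. The neural Tmod2, the muscle Tmod4 and the leiomodins Lmod1, Lmod2 and Lmod3, relatives of the tropomodulins, were listed at 0 in both libraries.

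Tmod1-201, coding for 359 residues, held 92.6% and 92.7% of Tmod1 TPM. The 3′ part of Tmod1 overlaps Tstd2 on the opposite strand over 1287 exonic bases, and 32.0% of its 25-base words occur in Tstd2 too. The estimated counts of Tmod1 were 2197.31 and 1974.62, those of Tstd2 were 266.69 and 192.38, and in each library the pair summed to a whole number, 2464.00 and 2167.00. Reads were thus divided between these genes, and no source used here says whether counting used strand. Tstd2 itself had 0.56 and 0.52 TPM.

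Tropomyosin TPM in these libraries was mainly that of Tpm3, and the complete coding TPM of Tpm3 was almost all of the short kind. The tropomyosin genes Tpm1 and Tpm3 make long proteins from a first promoter and short ones from an internal promoter with a first exon of its own. Short means under 260 residues in the annotation used here. Tpm3 (chr3:90072649-90100902, plus strand) had 3.64 and 3.71 TPM and Tpm1 (chr9:67022590-67049406, minus strand) had 1.28 and 1.67 TPM. Tpm3 was the higher in both libraries, by 2.84-fold in replicate 1 and 2.22-fold in replicate 2, a mean log2 ratio of 1.33 ± 0.252. Of the other tropomyosin genes, Tpm4 had 0.54 and 0.91 TPM, and Tpm2 had 0.01 and 0 TPM.

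The short and long Tpm3 proteins begin with different exons. The first coding exon of the short form, which carries nearly all of the Tpm3 coding TPM, is shown with its counterpart in Tpm1. It lies at chr3:90079732-90079863 on the plus strand, and the matching short exon of Tpm1 lies at chr9:67043578-67043709 on the minus strand. Both are printed 5′ to 3′ in the sense of the mRNA; capitals mark the 48 of 132 positions at which the short exons of Tpm3 and Tpm1 differ (63.6% identity).
Tpm3 short: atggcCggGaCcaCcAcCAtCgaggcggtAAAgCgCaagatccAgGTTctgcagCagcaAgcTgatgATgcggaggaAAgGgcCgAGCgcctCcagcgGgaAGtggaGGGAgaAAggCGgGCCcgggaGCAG
Tpm1 short: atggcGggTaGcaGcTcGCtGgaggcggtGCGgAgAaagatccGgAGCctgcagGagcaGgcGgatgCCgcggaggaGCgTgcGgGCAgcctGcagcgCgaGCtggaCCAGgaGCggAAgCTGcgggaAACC

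Tpm3 transcripts for 248 residues had 3.12 TPM in replicate 1 and 3.41 TPM in replicate 2. The transcript for 284 residues had 0.02 TPM in replicate 1, from 2.57 counts, and 0 in replicate 2. The short kind thus made up 99.4% and 100% of Tpm3 TPM in transcripts with a complete coding sequence. On the deposited posterior mean TPM, another estimate of the same unit, these shares were lower, at 91.8% and 94.8%. A Tpm3 transcript without a match in the annotation was counted in neither kind. It was at 0 TPM in both libraries, with posterior means of 0.23 and 0.13 TPM. The remaining Tpm3 TPM lay in transcripts with a retained intron, at 0.50 and 0.31 TPM.

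Within the short Tpm3 transcripts the libraries shared the leader but not the split. Tpm3-201 had 2.29 and 3.11 TPM, and Tpm3-202 had 0.83 and 0.30 TPM. These transcripts share 6 coding exons, differ in where their coding sequence ends, and have different exons of 76 bases as the fifth coding exon, at chr3:90088401-90088476 in Tpm3-201 and chr3:90089048-90089123 in Tpm3-202. The alternatives are printed with capitals at the 37 positions where they differ (51.3% identity), since reads on this stretch tell the transcripts apart.
Tpm3-201 exon: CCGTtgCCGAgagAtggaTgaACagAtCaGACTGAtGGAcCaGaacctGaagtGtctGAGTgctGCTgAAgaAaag
Tpm3-202 exon: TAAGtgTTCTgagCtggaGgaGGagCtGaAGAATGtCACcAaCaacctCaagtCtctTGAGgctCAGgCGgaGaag

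Of the 25-base words of Tpm3, 28.2% occur in Tpm3-rs7, a related sequence that had 0.12 and 0.11 TPM. The fractional counts of Tpm3 and Tpm3-rs7 summed to whole numbers in both libraries, 982.00 and 809.00, of which Tpm3-rs7 held 30.33 and 22.65.

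Tpm1 was low, with 233 and 232 counts on 5 and 7 of its 21 quantified transcripts, and its transcript estimates differed between the libraries. In replicate 1 the leading transcript was Tpm1-220, a nonsense-mediated decay target with 0.57 TPM, which had 0.08 TPM in replicate 2. In replicate 2 it was Tpm1-221, a processed transcript with 0.56 TPM, which had 0.11 TPM in replicate 1. Complete coding transcripts held 20.9% of Tpm1 TPM in replicate 1 and 61.4% in replicate 2, and short proteins made up 44.4% and 85.3% of that coding TPM. Transcripts for 248 residues were at 0 in replicate 1 and at 0.57 TPM in replicate 2, while those for 284 residues had 0.15 TPM in both. The split of Tpm1 between its forms was thus not resolved, and the part of depth in this was not tested.

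**Figure D2:**
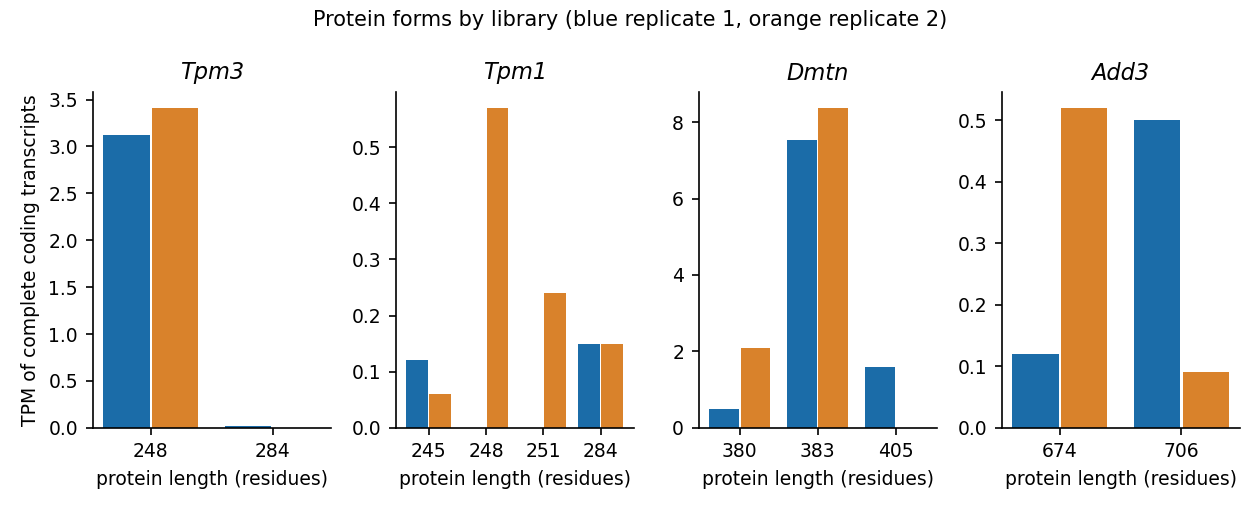
TPM of complete coding transcripts grouped by annotated protein length for Tpm3, Tpm1, Dmtn and Add3, with 1 bar per library and a separate vertical axis from 0 in each panel. The Tpm3 form of 248 residues and the Dmtn form of 383 residues lead in both libraries, while the leading forms of Tpm1 and Add3 differ between the libraries.

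RefSeq lists promoter windows at both Tpm3 starts, on GRCm38.p6. These are shown because the complete coding TPM falls almost wholly on transcripts from the inner one. The 250 bases before the outer start lie at chr3:90072401-90072650 and those before the inner start at chr3:90079271-90079520, both on the plus strand. Capitals mark GATAA, the core of the site read by GATA factors, and CACCC or its reverse complement, the core read by Krüppel-like factors.
Tpm3 outer start: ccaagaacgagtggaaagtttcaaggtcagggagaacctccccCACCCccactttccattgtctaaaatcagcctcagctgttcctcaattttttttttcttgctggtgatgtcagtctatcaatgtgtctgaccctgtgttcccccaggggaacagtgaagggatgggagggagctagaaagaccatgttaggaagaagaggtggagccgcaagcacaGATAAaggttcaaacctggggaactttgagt
Tpm3 inner start: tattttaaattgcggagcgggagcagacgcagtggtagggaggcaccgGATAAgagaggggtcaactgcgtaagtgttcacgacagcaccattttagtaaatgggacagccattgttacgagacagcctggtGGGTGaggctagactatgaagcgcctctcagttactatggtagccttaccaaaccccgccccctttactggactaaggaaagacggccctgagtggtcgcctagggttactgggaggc

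Both stretches held 1 match to each motif, so these letters do not separate the 2 starts. Promoter windows of 300 bases (250 before to 50 after a start) were given for 7 of the 10 genes, 10 windows in all, with none for Dmtn, Tmod3 and Actb. Searched on both strands, GATAA was in 4 of the 10 windows (2 of Tpm3, 1 of Mpp1 and 1 of Add3), against 25.4% of 32851 windows of all genes. CACCC was in 7 of 10, against 57.5%. The E-box pattern CANNTG was in 8 of 10, against 72.3%. None of these motifs contains another. A match is a description of letters, not of a bound site.

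Adducin, a tetramer that caps the fast-growing filament end, was led by the alpha subunit gene Add1, followed by the beta subunit gene Add2 and the gamma subunit gene Add3. Alpha with beta is the pair of the mature red cell membrane, and gamma replaces beta in many other tissues. Add1 (chr5:34573664-34632308, plus strand) had 12.8 TPM in replicate 1 and 15.4 TPM in replicate 2. Add2 (chr6:86028681-86124409, plus strand) had 3.10 and 2.74 TPM, and Add3 (chr19:53140443-53247399, plus strand) had 0.63 and 0.61 TPM. The order was the same in both libraries with no overlap. Add2 exceeded Add3 by 4.92-fold in replicate 1 and 4.49-fold in replicate 2, a mean log2 ratio of 2.23 ± 0.0930. This ratio was 2.24 over complete coding transcripts alone.

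The level of Add1 rests on transcripts whose annotation is incomplete. Add1-213, a model of 2370 bases that lacks its 5′ end, led in both libraries with 46.7% and 45.1% of Add1 TPM. Add1-206, a fragment of 407 bases, added 21.8% of Add1 TPM in replicate 1 from 99.5 counts and 8.84% in replicate 2 from 37.6 counts. Transcripts with a complete coding sequence held only 16.5% and 19.2% of Add1 TPM, that is 2.10 and 2.96 TPM. Over the 3070 coding genes with a mean of 1 TPM or more, the median of that share was 85.9%, and 7.88% of the genes had a lower share than Add1. The bases of Add1-213 lie to 97.9% within complete coding transcripts of the gene, so most of its sequence does not tell it from them.

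**Figure D3:**
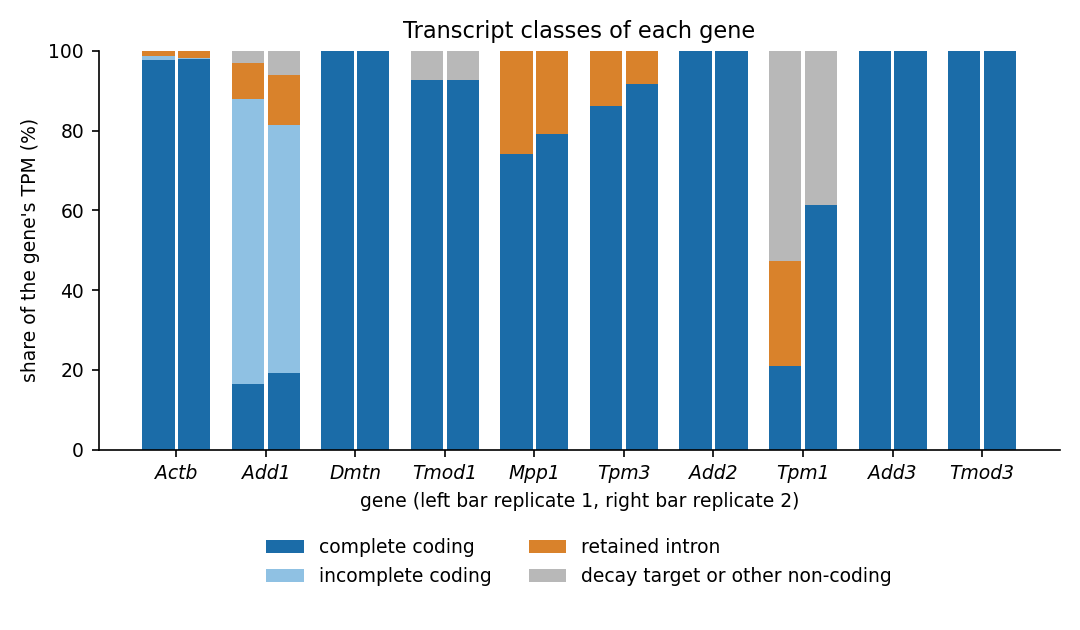
Share of each gene's TPM, in percent, by annotated class of transcript, with the left bar of each pair for replicate 1 and the right bar for replicate 2; the last class joins nonsense-mediated decay targets and processed transcripts. Add1 has 16.5% and 19.2% in complete coding transcripts and most of the rest in incomplete coding ones, while Dmtn, Add2, Add3 and Tmod3 have only complete coding transcripts.

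The place of Add1 among its partners therefore changed with the transcripts that were counted. Dmtn, Add2 and Add3 had only complete coding transcripts, so counting these alone could only lower the ratios of Add1 to them. Against Add2, the log2 ratio was 2.26 ± 0.316 over all transcripts and -0.23 over complete coding ones, where it was -0.56 in replicate 1 and 0.11 in replicate 2. Dividing the gene's counts by the length of its longest complete coding transcript gave 1.04 ± 0.373 against Add2. That length was 4547 bases for Add1, against deposited gene lengths of 1945 and 2046 bases, so this measure lowers Add1 too. Against Dmtn, the log2 ratio was 0.48 ± 0.106 over all transcripts, -2.01 over complete coding ones and -0.76 ± 0.162 per base of the longest complete coding transcript. Add1 thus stood above Dmtn on TPM over all transcripts but on neither of the other measures, while its lead over Add3 held in each of these measures (2.02 over complete coding transcripts, 3.29 ± 0.246 per base).

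**Figure D4:**
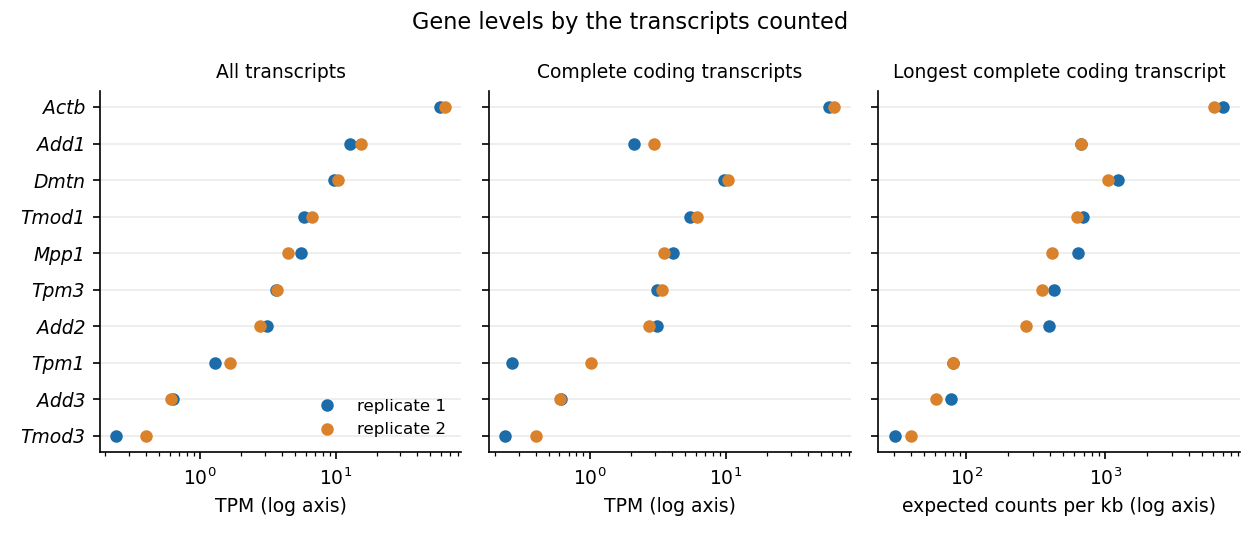
Level of each gene in each library on 3 scales, all with log axes: TPM over all transcripts, TPM over complete coding transcripts, and expected counts per kb of the longest complete coding transcript. Add1 is second by TPM but falls below Dmtn, Tmod1, Mpp1 and Tpm3 when only complete coding transcripts are counted, with 2.10 and 2.96 TPM.

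Among complete Add1 forms, the longest, of 735 residues, had 1.00 and 1.09 TPM and the one of 632 residues had 0.63 and 0.97 TPM. Add2 was quantified through a single transcript, of 725 residues. Add3 has forms of 706 and 674 residues, which differ by the presence of 96 bases at chr19:53244310-53244405 (plus strand). The segment is printed in capitals with 15 bases of mRNA on each side, because it separates the proteins of these forms; the forms also differ at their transcript ends.
Add3 segment: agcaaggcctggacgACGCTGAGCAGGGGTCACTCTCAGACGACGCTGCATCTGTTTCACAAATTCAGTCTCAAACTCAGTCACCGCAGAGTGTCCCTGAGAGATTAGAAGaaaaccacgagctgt

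The form with the segment had 80.6% of Add3 TPM in replicate 1 and 14.8% in replicate 2. The forms without it had 19.4% and 85.2%. The split was thus opposite in the 2 libraries, at 0.50 and 0.09 TPM with the segment and 0.12 and 0.52 TPM without it, on gene totals of 350 and 273 counts. The models of the forms without the segment have another length in the annotation used to read protein lengths, so their protein lengths are uncertain. The split is uncertain too, since it was opposite in the libraries, and why it differed was not tested.

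Dematin, which bundles actin and contacts adducin and the membrane, was one of the most abundant of the 10 messages. Dmtn (chr14:70601263-70636048, minus strand) had 9.63 TPM in replicate 1 and 10.5 TPM in replicate 2, below Actb and Add1. Its counts, 5137 and 4352, were more than those of any other of the genes except Actb. By TPM Dmtn exceeded 98.6% of nuclear protein-coding genes in both. The form of 383 residues led in both libraries, with 7.54 and 8.37 TPM, or 78.3% and 80.0% of the gene.

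Red cells are known to hold both a smaller and a larger dematin. The larger Dmtn form, of 405 residues (Dmtn-201), had 1.59 TPM from 840 counts in replicate 1 and 0 in replicate 2. The form of 380 residues, Dmtn-202, ran the other way, at 0.50 TPM in replicate 1 and 2.09 TPM in replicate 2. The quantified models of Dmtn-201 (4129 bases) and the leading Dmtn-203 (4187 bases) differ in length from the annotation used to read protein lengths. There they have 5418 and 4176 bases, so the protein lengths given to these models are uncertain. The split between the forms is uncertain too, since it differed between the libraries, and why it differed was not tested.

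Mpp1, whose product p55 joins the junction to glycophorin C, was the gene most in favour of replicate 1 among the 10. Mpp1 (chrX:75109733-75131016, minus strand) had 5.55 TPM in replicate 1 and 4.44 TPM in replicate 2, from 1602 and 1047 counts. Mpp1-201, coding for 466 residues, held 69.2% and 77.9%, and retained-intron transcripts 25.8% and 20.9%. Of the related scaffold genes, Mpp6 had 1.38 and 1.22 TPM, Mpp2 had 0.93 and 1.04 TPM, and Mpp3 was listed at 0 in both.

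Between the libraries the 10 genes had a median difference near that of all genes on log2(TPM + 1). Those genes were not matched to the 10 for level. On the difference of log2(TPM + 1), centred on its median over the 9878 genes with a mean of at least 20 counts, 0 of 10 were over 1.5-fold apart, against 3.87% of all genes tested. The median size of the difference was 0.123 for the 10 genes and 0.140 for all genes. A pseudocount of 1 compresses low genes: with 0.1 in its place, 0 of 10 were apart, against 28.5% of genes. On counts scaled by edgeR's TMM factors, 1 of 10, Tmod3, was apart, against 35.2% of genes. By TPM with no pseudocount Tmod3 was over 1.5-fold apart too, at 0.24 and 0.40 TPM.

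The log2 ratio of TPM, replicate 1 over replicate 2, with neither pseudocount nor centring, was 0.32 for Mpp1, with a counting interval of 0.21 to 0.43. It was -0.74 for Tmod3, with an interval of -1.10 to -0.38, and -0.38 for Tpm1, with an interval of -0.65 to -0.12. The interval left out 0 for 8 of the 10 genes, all but Tpm3 and Add3, but it covers counting error only and this ratio keeps the difference in scale between the libraries. With TMM scaling of counts the ratio was 0.40 for Mpp1, -0.60 for Tmod3 and -0.20 for Tpm1.

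**Figure D5:**
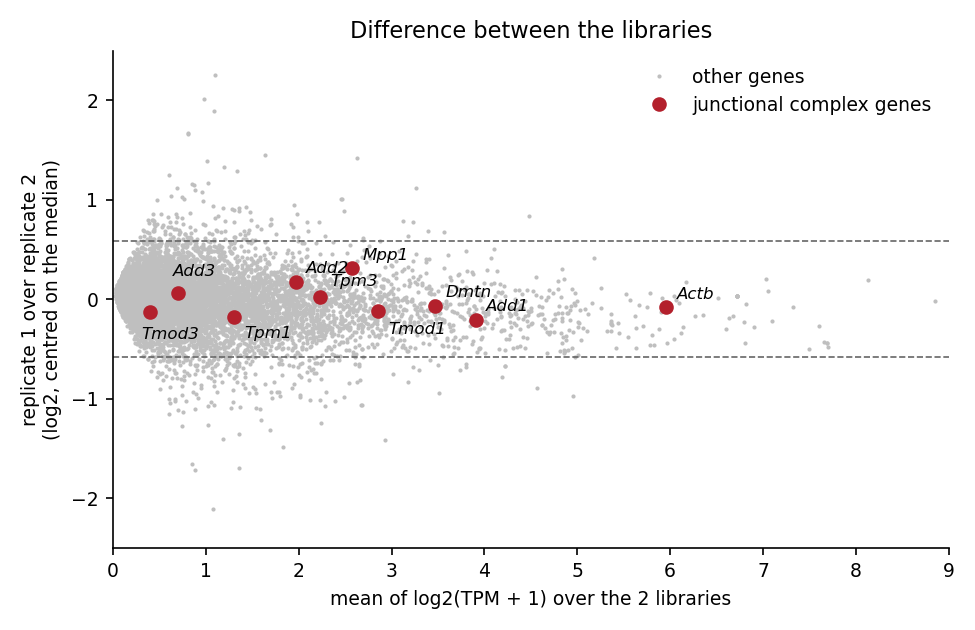
Difference between the libraries (replicate 1 over replicate 2, log2 of TPM + 1, centred on the median) against the mean level for 9878 genes, with the junctional complex genes in red and dashed lines at 1.5-fold. All 10 lie between the lines, with Mpp1 the highest at 0.31 and Add1 the lowest at -0.20.

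Of the 8 genes with 2 or more quantified transcripts, 6 had the same leading transcript in both libraries, against 66.8% of such coding genes. The exceptions were Add3 and Tpm1, the 2 lowest of the 8 by TPM.

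The genes listed here as skeleton and membrane partners mostly had higher RNA levels than most of the junctional genes. Of 10 skeleton and membrane partners, 9 were at 1 TPM or more in both libraries, with a median of 16.7 ± 0.891 TPM, beside 4.34 TPM for the junctional genes. The 4 highest were Slc4a1 (band 3, the anion exchanger) at 136 ± 17.5 TPM, Ank1 (ankyrin) at 29.4 ± 2.32 TPM, Rhag (a Rhesus complex glycoprotein) at 24.7 ± 0.339 TPM and Epb42 at 23.4 ± 0.226 TPM. The lowest was Slc2a1, the glucose transporter that links to dematin and adducin in human red cells, at 0.16 and 0.04 TPM. All partners but Slc2a1 were above Dmtn in both libraries.

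Paralogs of the junctional genes were mostly low or listed at 0: 2 of 18 reached 1 TPM in both libraries (Actg1 and Mpp6), a share close to the 12.6% of all nuclear protein-coding genes, and 9 were listed at 0 in both. Of 13 genes of actin capping and turnover, 10 reached it, led by Tmsb4x (thymosin beta, which holds actin monomers) at 40.2 ± 4.0 TPM, Cfl1 (cofilin, which severs filaments) at 21.7 ± 1.46 TPM, Pfn1 (profilin) at 14.9 ± 3.30 TPM and Tmsb10 at 7.41 ± 0.693 TPM. The lowest were Cfl2 at 0.450 ± 0.0566 TPM and Gsn (gelsolin) at 0.195 ± 0.0778 TPM.

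Of 17 genes of actin nucleation and signalling, 14 reached 1 TPM in both libraries. The highest were the formin Diaph3 at 8.22 ± 0.283 TPM, the GTPase Cdc42 at 7.75 ± 0.156 TPM, and the Arp complex subunits Arpc2 at 6.08 ± 0.905 TPM and Actr3 at 5.29 ± 0.389 TPM. The lowest were Was at 0.475 ± 0.0778 TPM and Diaph2 at 0.205 ± 0.0354 TPM. Of 7 non-muscle myosin genes 5 reached it, with the light chains Myl6 at 9.77 ± 2.61, Myl12b at 2.98 ± 0.0990 and Myl12a at 2.75 ± 0.700 TPM and the heavy chain Myh9 at 2.69 ± 0.269 TPM, while Myl9 had 0.160 ± 0.0566 TPM and Myh14 was listed at 0.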

How the data were processed

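Gene and transcript tables of 2 total RNA libraries were used, 1 of each per library. Per the deposited description of the files, quantification was on mm10 with GENCODE M4; no source used here names the tool, its version or its strand setting. The deposited expected counts are estimated reads that need not be whole, the deposited TPM and FPKM are scaled by length and by the whole table, and the deposited percent is a transcript's share of its gene's TPM, per the file headers. The deposited interval bounds, of unstated level, were treated as a score and not used.

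GENCODE M21 (GRCm38) supplied names, transcript types, protein lengths and 1-based coordinates, matched by unversioned identifier; 42462 of 43346 genes and 81 of 82 transcripts matched, and Hem1 did not. A complete coding transcript is a protein-coding one with neither end of its coding sequence or message tagged as missing. Coding sequences and 25-base words came from the transcripts of that annotation, promoters from RefSeq on GRCm38.p6. TPM was rescaled to nuclear protein-coding genes. Counting intervals are 95% intervals from expected counts. Expected counts were rounded for edgeR and DESeq2 scaling. The count of genes apart was tested on simulated data with counting noise only. Changes were placed only in genes of higher TPM, so that test does not cover the low ones among the 10. The genes, lists and rules were chosen with earlier results of these data known; all 10 genes, and of each other list the 4 highest and 2 lowest, were named (1 such gene and 2 sequences are not reported here), and others where singled out after their values were seen. The alternatives covered the unit, the estimate, the pseudocount, the scaling, the filter, the denominator and each library left out. The software was DESeq2 1.42.0 and edgeR 4.0.16 under R 4.3.3, with numpy 2.4.6 and pandas 2.3.3 under Python 3.11.15.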

Additional observations from a re-analysis of the deposited data

How the results depend on the processing

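With 2 libraries in 1 group, no test was possible, leaving a library out returns the value of the other, and outliers could not be sought. No paired analysis was possible because there is only 1 group. Settings that counted complete coding transcripts only, or counts per base of the longest such transcript, were chosen after seeing the data, as were the ratio of Add1 to Dmtn and the median-centred counts.

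The log2 ratio of Add1 to Dmtn was 0.48 by TPM and reversed to -0.64 on expected counts without length, -2.01 on complete coding transcripts and -0.76 per base. That of Add1 to Add2 (2.26) moved to 1.58 on counts and 1.04 per base and reversed to -0.23 on complete coding transcripts. That of Add1 to Add3 (4.50) moved to 3.30, 3.29 and 2.02 in the same order of settings. That of Tpm3 to Tpm1 (1.33) moved to 1.90, 2.27 and 2.64, the last from 3.54 in replicate 1 and 1.74 in replicate 2, and that of Add2 to Add3 (2.23) to 1.72 on counts. Leaving out a library gave 4.06 to 4.61 for Tmod1 to Tmod3, 1.15 to 1.51 for Tpm3 to Tpm1, 2.04 to 2.49 for Add1 to Add2, 4.34 to 4.65 for Add1 to Add3, 2.17 to 2.30 for Add2 to Add3 and 0.40 to 0.55 for Add1 to Dmtn. The share of coding TPM (0.422%) was 0.589% without globin genes in the denominator and 0.407% to 0.436% with a library left out. The 8 genes at 1 TPM were 8 with either library left out and 7 on complete coding transcripts, where Tpm1 dropped out.

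Genes over 1.5-fold apart numbered 382, against 2819 with a pseudocount of 0.1, 3480 with TMM, 3476 with DESeq2's size factors, 3473 on median-centred counts and 578 without the filter. Of the 10 junctional genes, 0 were apart on log2(TPM + 1) and log2(TPM + 0.1) and 1 on each of the 3 count scales. Of 88 alternatives for shares by transcript, 14 moved by more than the SD over libraries and 11 changed by 10 percentage points or more. On the posterior mean, the leading share went from 73.3% to 55.4% for Tpm3 and from 82.9% to 71.5% for Add3. The Add3 values average a different leading transcript in each library, Add3-201 in replicate 1 and Add3-202 in replicate 2. The protein-coding share of Tpm3 went from 89.0% to 76.6%. For Tpm1 a move within the SD could be large, since the SD was 28.6 points for its protein-coding share and 28.9 for its short share.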
